A study of Mus musculus with 12 samples.

Results

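The genes described here carry an interferon signal from the cell surface to the nucleus and switch it off again: the receptor chains Ifnlr1, Il10rb, Ifnar1 and Ifnar2, the kinases Jak1 and Tyk2, the transcription factor Stat2, and the feedback inhibitors Socs1 and Usp18. They were chosen by name for their place in the pathway, with earlier results of these data known. They are 9 of the 48526 gene rows of each library. All 9 had a row and passed the filter on low counts in every comparison.

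The libraries came from intestinal epithelium of 4 female mice aged 3 months; the titles call it whole intestine epithelial cells, and the extraction protocol places it in the proximal part of the small intestine. In 2 of them, called DKO, loss of KAT2A and KAT2B, a pair of lysine acetyltransferases, was induced with tamoxifen at 100 mg/kg in ethanol and corn oil, injected into the abdomen on each of 4 days. The 2 control mice received ethanol and corn oil without tamoxifen, so genotype and drug cannot be told apart, and cells were taken 2 days after the last injection. The labels do not give the Cre driver, the floxed alleles or the strain. Each animal gave an input library of unselected RNA and a pulldown with each of the antibodies J2 and K1, which bind double-stranded RNA whatever its sequence, in all 12 libraries in 6 groups of 2.

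Gene-assigned counts ran from 10307281 to 11474107 in input and from 13308021 to 16139531 in control pulldowns. DKO pulldowns held 2220291 to 5826361. In input, Kat2a fell 1.85-fold (log2 fold change -0.88 ± 0.23 SE, adjusted p = 0.0205) and Kat2b fell 2.85-fold (-1.51 ± 0.17, adjusted p = 0.000632). All 8 epithelial markers were detected in every group, and their summed level in input was 6637 and 6822 CPM (counts scaled to the library total) in control and 7250 and 6011 CPM in DKO. DKO animals 1 and 2 stood apart in the pulldowns. Epithelial markers summed to 12790 and 3903 CPM in their J2 libraries and to 14596 and 6702 CPM with K1. Stromal markers summed to 172 and 21.9 CPM in DKO with J2 and to 206 and 75.6 CPM with K1. Control animals 1 and 2 also stood apart in stromal markers, at 2.61 and 20.96 CPM with J2 and 2.47 and 40.5 CPM with K1. With J2, DKO animal 2 was thus near control animal 2, so a stromal spread between animals was not particular to DKO. Fewer cells of a type and less RNA per cell cannot be told apart in such bulk samples.

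Type I interferons bind a receptor of Ifnar1 and Ifnar2, and type III interferons (interferon lambda) bind one of Ifnlr1 and Il10rb, the chain that the receptors for interleukin 10 and interleukin 22 also use. In both receptors Jak1 and Tyk2 phosphorylate STAT proteins, and Stat2 enters with Irf9 the complex ISGF3, which binds interferon-stimulated response elements in DNA. In the gut, type III receptors are known above all from epithelial cells, while type I receptors are found in most cell types. Among the genes that ISGF3 switches on are inhibitors of the same pathway, of which Usp18 binds Ifnar2 and blocks signalling there, and Socs1 binds the kinases.

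Promoter sequence is shown for Stat2, Socs1 and Ifnar2, because these were the members with a match to a motif of this pathway in the 250 bases before the RefSeq start of the gene. The sequences are from RefSeq (GRCm38.p6), whose table matched 7 of the 9 genes, all but Il10rb and Usp18. Both strands were searched for GAAANNGAA, the core of an interferon-stimulated response element, and for TTCNNNGAA, the element bound by STAT dimers, which reads the same on both strands. Each sequence is written 5′ to 3′ along the strand of its gene, and capitals mark the matches.
Stat2 (chromosome 10, 128270248 to 128270497, plus strand): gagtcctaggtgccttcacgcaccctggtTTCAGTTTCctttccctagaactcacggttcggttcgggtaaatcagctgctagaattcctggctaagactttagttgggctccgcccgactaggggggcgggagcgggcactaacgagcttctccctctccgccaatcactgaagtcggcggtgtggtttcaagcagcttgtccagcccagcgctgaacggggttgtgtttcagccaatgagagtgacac
Socs1 (chromosome 16, 10785537 to 10785786, minus strand): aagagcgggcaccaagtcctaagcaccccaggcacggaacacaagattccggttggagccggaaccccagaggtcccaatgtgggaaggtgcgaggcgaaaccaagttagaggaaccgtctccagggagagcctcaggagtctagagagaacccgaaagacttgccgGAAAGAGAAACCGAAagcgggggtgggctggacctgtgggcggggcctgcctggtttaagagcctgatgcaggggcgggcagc
Ifnar2 (chromosome 16, 91372533 to 91372782, plus strand): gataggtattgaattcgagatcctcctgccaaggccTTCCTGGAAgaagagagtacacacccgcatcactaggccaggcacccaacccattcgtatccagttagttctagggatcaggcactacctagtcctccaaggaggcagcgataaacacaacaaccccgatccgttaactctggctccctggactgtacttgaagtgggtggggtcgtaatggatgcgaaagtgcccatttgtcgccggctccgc
The Stat2 match is GAAANNGAA on the opposite strand and begins 221 bases before the start. The capitals of Socs1 are 2 overlapping matches to GAAANNGAA on the strand of the gene, which begin 83 and 77 bases before the start. The match of Ifnar2 is TTCNNNGAA and begins 214 bases before the start. Ifnlr1, Ifnar1, Jak1 and Tyk2 had a match to neither motif in this window. GENCODE places the start of Ifnlr1, and that of Jak1, farther upstream than RefSeq does, so most of the Ifnlr1 window and a part of the Jak1 window lie inside the gene as GENCODE draws it, and the bases before those GENCODE starts were searched only in part. Of all 32851 promoters in the table, 7.13% held GAAANNGAA and 7.02% held TTCNNNGAA in a window of the same length. Stat2 and Socs1 rose in DKO 4.54-fold and 5.69-fold in input, and Ifnar2 2.13-fold. Of the genes without a match, Ifnlr1 (1.60-fold) and Jak1 (1.50-fold) also rose, and Ifnar1 and Tyk2 did not pass the test. Usp18, which rose 16.5-fold, had no sequence to search. A link between motif and change was not tested.

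In input, the comparison of DKO with control asks how transcript levels of the pathway differed before any selection for double-stranded RNA. All 9 genes had a higher mean in DKO, and 6 of 9 rose (edgeR quasi-likelihood test, Benjamini-Hochberg adjusted p under 0.05 over 15088 genes): Usp18, Socs1, Stat2, Ifnar2, Ifnlr1 and Jak1. None fell. Over all genes tested, 18.8% rose and 17.1% fell in this comparison, and the median log2 fold change was -0.001 over all genes against 0.68 over the 9. The p-values measure the spread between these 2 animals a group, drawn for each gene toward the trend over all genes tested. With 2 residual degrees of freedom, the small p-values rest largely on that trend. Usp18, Stat2 and Socs1 passed in every alternative fit, whereas Ifnlr1 (adjusted p = 0.29), Ifnar2 (0.056) and Jak1 (0.587) did not pass in 1 fit of all 12 libraries.

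The ligands were nearly absent from the counts. Of 21 type I, II and III interferon genes, 7 were at 0 in all 12 libraries, Ifnb1 among them, and at most 3 of the 21 had more than 3 counts in any library. Interferon alpha and beta genes summed to 0 counts in all 6 control libraries. In DKO animals 1 and 2 they summed to 6 and 5 counts in input, 15 and 30 with J2, and 9 and 7 with K1. A count of 0 in the control input libraries allows up to 0.239 and 0.216 CPM, and these limits cover counting error only. Ifnab, a gene of the alpha family, held 10 and 12 of the J2 counts in DKO against 0 and 0 in control. It passed the count filter in J2 only through the DKO group, so no p is given for it. Alpha interferon genes are close copies of each other, so the gene a read was assigned to is uncertain. Interferon lambda genes (Ifnl2 and Ifnl3) summed to at most 3 counts in any library. Ifnk, a type I interferon known from keratinocytes, was the 1 ligand with enough counts to be tested in input. It had 25 and 33 counts in control and 9 and 16 in DKO (2.18-fold lower, log2 fold change -1.12 ± 0.36). It passed the filter only through the control group, where it was higher, so its p is not given.

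Of the receptor chains, Ifnlr1 and Ifnar2 rose in input, and their partners Il10rb and Ifnar1 did not pass the test. Ifnlr1 (ENSMUSG00000062157.6, GRCm38 chromosome 4, 135686287 to 135708181), the chain specific to interferon lambda, had 35.2 and 41.8 CPM in the control animals and 60.8 and 59.0 CPM in the DKO animals. Both DKO values were above both control values, by 1.60-fold on average (log2 fold change 0.68 ± 0.13, adjusted p = 0.00618). It did not pass without control animal 1 (0.55, adjusted p = 0.0635). Its partner Il10rb (ENSMUSG00000022969.13, chromosome 16, 91406164 to 91425834) had 48.8 and 48.2 CPM in control and 61.8 and 47.1 CPM in DKO. The Il10rb groups overlapped (log2 fold change 0.21 ± 0.15, adjusted p = 0.319).

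Ifnar2 (ENSMUSG00000022971.18, chromosome 16, 91372783 to 91405589), the chain of the type I receptor that binds interferon most tightly, had 10.4 and 8.14 CPM in control and 22.3 and 16.3 CPM in DKO. It was 2.13-fold higher in DKO with no overlap (log2 fold change 1.09 ± 0.22, adjusted p = 0.00696). Ifnar1 (ENSMUSG00000022967.12, chromosome 16, 91485238 to 91507441) had 47.7 and 51.6 CPM in control and 74.6 and 51.7 CPM in DKO. Its groups lay next to each other without overlap, and the difference did not pass the test (log2 fold change 0.39 ± 0.18, adjusted p = 0.132). Il10rb, Ifnar1 and Ifnar2 lie next to each other on the same strand, and Gm21970 shares 14.9% of the exon bases of Il10rb and 9.5% of those of Ifnar2. Gm21970 itself had 0 counts in all 12 libraries, which does not show whether Il10rb and Ifnar2 lost reads in the shared bases.

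The kinases differed less than Stat2 or the inhibitors. Jak1 (ENSMUSG00000028530.14, chromosome 4, 101152367 to 101265282, minus strand), which serves both receptors, had 110 and 117 CPM in control and 180 and 153 CPM in DKO. It was 1.50-fold higher in DKO (log2 fold change 0.59 ± 0.13, adjusted p = 0.0122). It did not pass without control animal 1 (0.54, adjusted p = 0.0983) or control animal 2 (0.63, adjusted p = 0.0514). Tyk2 (ENSMUSG00000032175.10, chromosome 9, 21104068 to 21131243, minus strand), the kinase on Ifnar1 and Il10rb, had 44.2 and 48.0 CPM in control and 61.3 and 51.8 CPM in DKO. Both of its DKO values were the higher ones, but the difference of 1.26-fold did not pass the test (log2 fold change 0.33 ± 0.13, adjusted p = 0.0851). Counting did not use strand, and 8.1% of the exon bases of Tyk2 are shared with 1700084C06Rik on the other strand, which had 0 to 14 counts per library.

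Stat2 (ENSMUSG00000040033.15, chromosome 10, 128270559 to 128292849), the subunit of ISGF3 that carries its activation domain, had 55.3 and 40.5 CPM in control and 242 and 181 CPM in DKO. The lower DKO value was more than 3 times the higher control value, and the fold change was 4.54 (log2 2.18 ± 0.20, adjusted p = 0.000349). Socs1 (ENSMUSG00000038037.4, chromosome 16, 10782240 to 10785536, minus strand), the inhibitor of the JAK kinases, had 5.89 and 3.89 CPM in control and 28.0 and 25.9 CPM in DKO. It was 5.69-fold higher in DKO (log2 2.51 ± 0.21, adjusted p = 0.000274), from 74 and 54 counts in control to 336 and 353 in DKO.

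Usp18 (ENSMUSG00000030107.10, chromosome 6, 121245906 to 121270917), which removes ISG15 from proteins and inhibits signalling at Ifnar2, differed more than any other member. It had 15.8 and 7.71 CPM in control and 260 and 115 CPM in DKO, which is 198 and 107 counts against 3114 and 1568. The fold change was 16.5 (log2 4.04 ± 0.46, adjusted p = 0.000725). The animals of each group also differed from each other by about as much, 2.04-fold in control and 2.25-fold in DKO, so both groups were wide but far apart. Gm44148 on the other strand shares 4.4% of its exon bases and had 0 to 13 counts per library. In the input of DKO animal 1 all 9 genes were higher than in DKO animal 2, whereas between the control animals 5 were higher in animal 1 and 4 in animal 2. Without DKO animal 1 the log2 fold change of Usp18 in input was 3.35 (adjusted p = 0.000958), and without DKO animal 2 it was 4.51 (adjusted p = 0.000302).

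**Figure D1:**
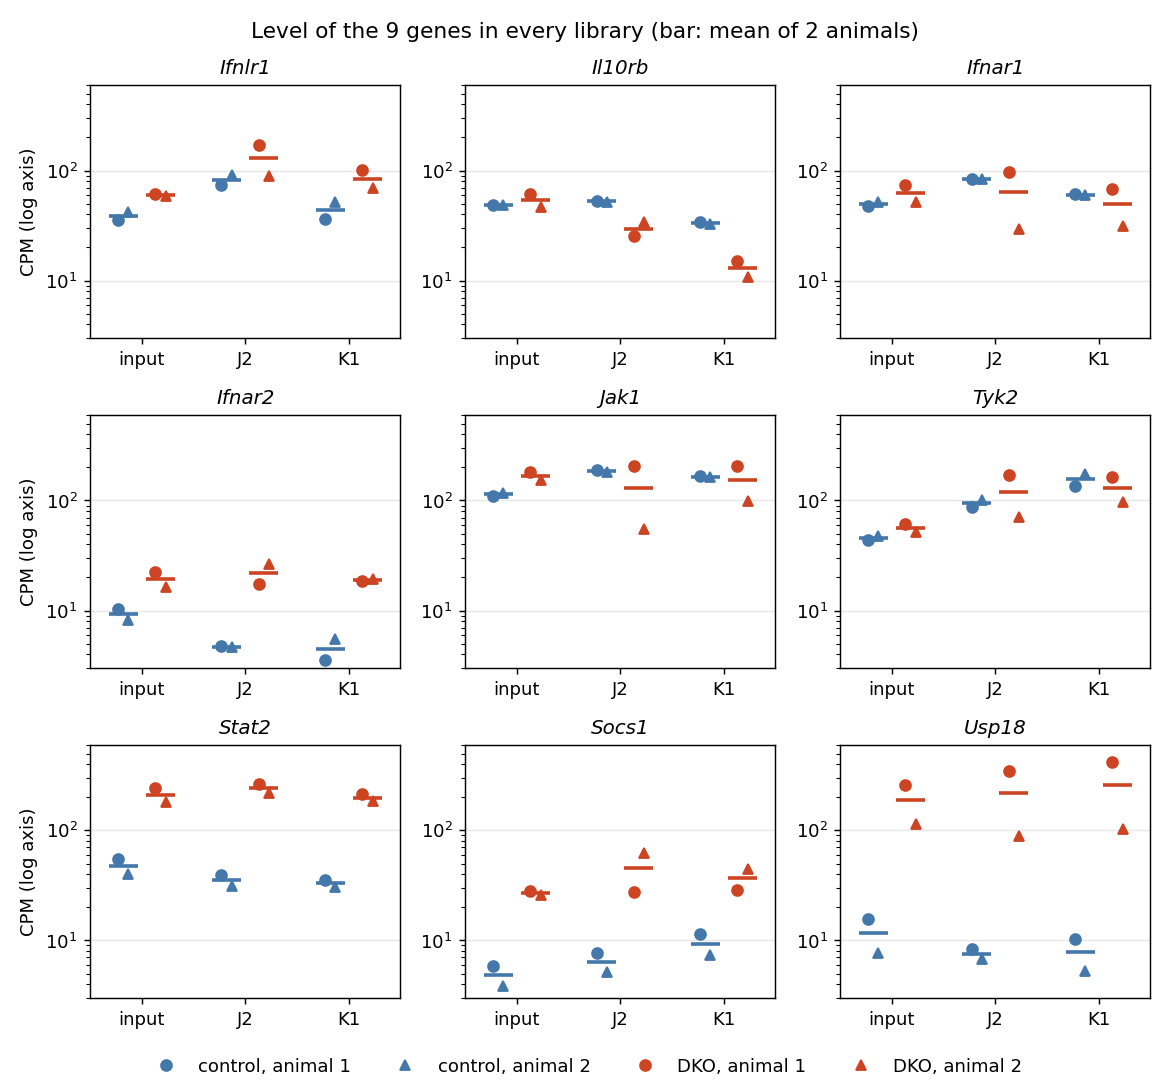
Each panel plots 1 gene in CPM on a log axis, by kind of library, with blue for control and red for DKO, circles for animal 1, triangles for animal 2 and a bar for the mean of 2. Stat2, Socs1, Usp18 and Ifnar2 were higher in DKO with no overlap in input, J2 and K1, while both DKO values of Il10rb lay lower in the pulldowns and not in input.

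The order of levels, in CPM per kilobase of exon so that genes of different length can be compared, changed between the genotypes in input. In control, Jak1 was highest at 15.7 ± 0.712 (SD, n = 2), followed by Il10rb at 12.7 ± 0.104. Ifnlr1 (9.20 ± 1.12), Ifnar1 (8.36 ± 0.469), Stat2 (8.08 ± 1.77) and Tyk2 (6.71 ± 0.395) followed, each overlapping its neighbour in the order. Usp18 (4.21 ± 2.04), Ifnar2 (2.79 ± 0.484) and Socs1 (1.68 ± 0.486) were lowest, and the animals of Usp18 and Ifnar2 overlapped. In DKO, Usp18 was highest at 67.2 ± 36.6 and Stat2 next at 35.7 ± 7.24. Jak1 followed at 23.1 ± 2.70. Ifnlr1 (14.3 ± 0.297), Il10rb (14.3 ± 2.72), Ifnar1 (10.6 ± 2.73), Socs1 (9.28 ± 0.503) and Tyk2 (8.23 ± 0.982) overlapped their neighbours, and Ifnar2 was lowest at 5.80 ± 1.26. In control, the chain with the lower transcript level was thus Ifnlr1 for type III and Ifnar2 for type I. In DKO, Ifnlr1 reached the level of Il10rb, with overlapping values, and Ifnar2 stayed below Ifnar1 in both animals. Exon lengths took in all transcripts of a gene and the bases shared with other genes. The order of genes at near levels, such as Ifnlr1 and Il10rb in DKO, depends on that choice.

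**Figure D2:**
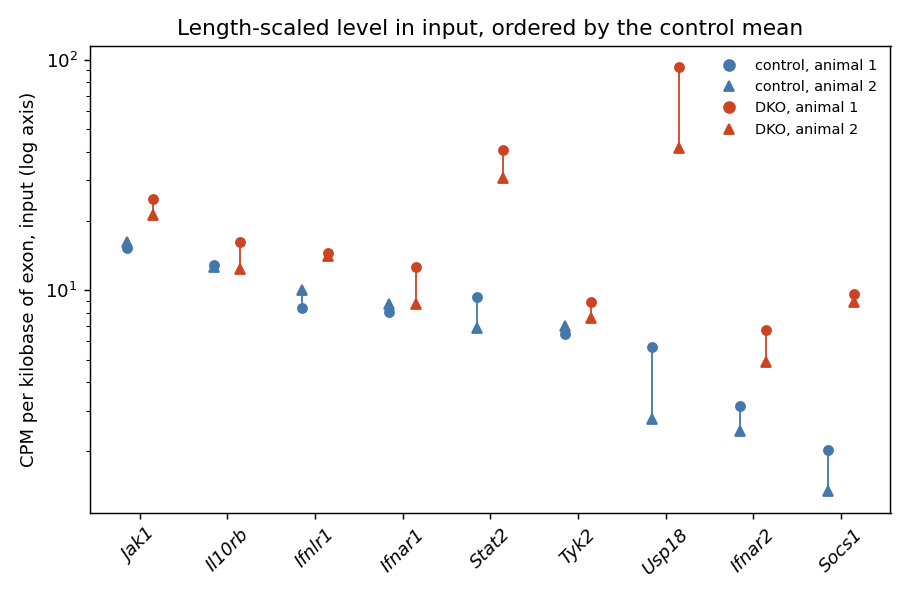
Level in input in CPM per kilobase of exon on a log axis, ordered by the control mean, with a line joining the 2 animals of a group (circle and triangle) in blue for control and red for DKO. Usp18 moved from 4.21 in control to 67.2 in DKO and Socs1 from 1.68 to 9.28, while Il10rb and Tyk2 shifted by less.

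Other genes of the pathway were counted from lists of related receptors, kinases, inhibitors and targets. The lists were written with earlier results of these data known, so their counts describe the data and are no independent test. Over all genes tested in input, 18.8% rose and 17.1% fell. Among other cytokine receptors, 3 of 6 tested genes rose in input and 0 fell. These were Il20rb (log2 fold change 1.35, adjusted p = 0.0162), Il6st, the signalling chain for interleukin 6 (0.86, adjusted p = 0.00193), and Ifngr1, the ligand-binding chain for interferon gamma (0.71, adjusted p = 0.00656). Among the other JAKs, STATs and Irf9 reported here, 3 of 7 tested genes rose and 0 fell, with a median of 0.24. Irf9, the partner of Stat2 in ISGF3, rose from 35.8 ± 0.686 CPM to 94.0 ± 4.67 CPM (2.70-fold, log2 1.43 ± 0.12, adjusted p = 0.000242). Jak3 (1.03, adjusted p = 0.00255) and Stat3 (0.53, adjusted p = 0.0229) also rose.

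Of 16 other feedback genes, 3 rose and 1 fell, with a median of 0.26, and the share that rose was that of all genes tested (18.8%). Isg15, the ubiquitin-like protein that Usp18 removes, rose 16.1-fold (log2 4.01 ± 0.38, adjusted p = 0.000363), and Socs3 rose 6.01-fold (2.59 ± 0.20, adjusted p = 0.000182). Socs6 rose by 0.69 (adjusted p = 0.0105), and Socs2 fell by 0.52 on the log2 scale (adjusted p = 0.0113). All 12 genes of a list of ISGF3 targets rose, with a median of 4.16, and this list too was written with earlier results known. The largest changes were those of Oas2 (log2 6.28, adjusted p = 0.000107), Ifit2 (6.25, adjusted p = 0.00103), Ifi44 (5.37, adjusted p = 0.000184) and Ifit3 (4.75, adjusted p = 0.00032). Of 12 genes known as targets of gamma-activated sites (GAS), the elements through which interferon gamma acts, 8 rose and 3 fell, with a median of 2.02. Over all genes tested, 18.8% rose and 17.1% fell. Icam1, an adhesion molecule (log2 4.21, adjusted p = 0.000313), and Gbp5, a guanylate-binding protein (3.95, adjusted p = 0.00496), rose. Cxcl9, a chemokine, also rose (log2 4.83), from 7 and 6 counts in control to 215 and 136 in DKO. It passed the count filter only through the DKO group, so no p is given for it. Ciita, which switches on MHC class II genes, fell 14.4-fold, from 69.5 ± 14.1 CPM to 4.67 ± 0.469 CPM (log2 -3.85 ± 0.20, adjusted p = 5.69e-05). Irf1 (-0.78, adjusted p = 0.0071) and Irf8 (-0.68, adjusted p = 0.0261) were the others that fell.

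Leukocyte markers moved with genotype in input. Their summed level was 82.0 and 98.2 CPM in control and 66.8 and 60.4 CPM in DKO. Of 10 tested of 14 listed, 5 fell, such as the T-cell gene Cd3g (log2 -1.12, adjusted p = 0.0161), and 2 rose. Over all genes tested, 17.1% fell and 18.8% rose. The 2 were the macrophage genes Cd68 (1.01, adjusted p = 0.0413) and Csf1r (2.74, 8 and 7 counts in control and 67 and 27 in DKO). Csf1r passed the count filter only through the DKO group. The listed myeloid genes Itgam (1.35 and 1.08 CPM in control, 0.750 and 0.956 in DKO) and Adgre1 (0 and 4 counts against 5 and 0) did not rise. Their part in the differences of the members was not tested. Of 8 epithelial markers, Krt18 alone passed the test in input (log2 1.32, adjusted p = 0.00042). Stromal markers summed to 0.875 and 4.32 CPM in control input and 5.09 and 2.94 CPM in DKO input, and endothelial markers to 9.15 and 8.58 CPM against 8.51 and 7.42 CPM. Erythroid markers summed to at most 3.92 CPM in any library.

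**Figure D3:**
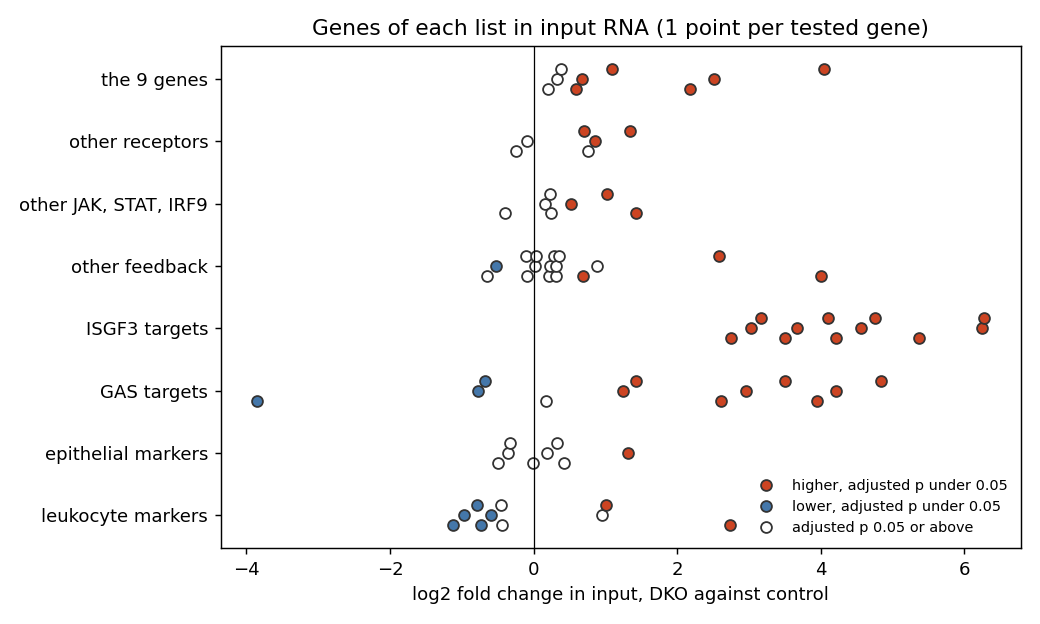
Log2 fold change in input of DKO against control, 1 point per tested gene, by list, with red for genes that rose, blue for genes that fell and open points for adjusted p of 0.05 or above. The lists were written with earlier results of these data known. The 12 ISGF3 targets lie between the rise of Socs1 and 6.28, and of the other feedback genes 3 of 16 rose, the share of all genes tested.

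In the J2 pulldown, DKO against control asks whether the amount of each transcript recovered by the antibody differed. Of the 9 genes 4 rose, Ifnar2, Stat2, Socs1 and Usp18, and 0 fell, where 6.02% of 13181 genes rose. Ifnar2 had 4.73 and 4.61 CPM in control and 17.3 and 26.5 CPM in DKO (4.94-fold, log2 2.30 ± 0.45, adjusted p = 0.0397). Stat2 had 39.1 and 31.4 CPM in control and 266 and 220 CPM in DKO (7.15-fold, log2 2.84 ± 0.39, adjusted p = 0.0287). Both groups of Stat2 were tight and far apart. Socs1 had 7.62 and 5.18 CPM in control and 27.8 and 62.9 CPM in DKO (7.53-fold, log2 2.91 ± 0.58, adjusted p = 0.0398). Usp18 had 8.44 and 6.72 CPM in control and 348 and 89.1 CPM in DKO (29.0-fold, log2 4.86 ± 0.74, adjusted p = 0.0301). The DKO animals differed 3.90-fold in Usp18 with animal 1 higher, whereas Socs1 was higher in animal 2.

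With either control animal left out, 0 of the 9 genes passed in J2, with adjusted p of 0.0814 to 0.483 for these 4 genes, and the spread then rests on the DKO pair alone. With either DKO animal left out, the spread rests on the control pair. Calls then rose among all genes tested too, so no count of the 9 genes is given. Across these 4 fits the log2 fold change of Ifnar2 was 1.95 to 2.58, that of Stat2 2.62 to 2.97, that of Socs1 2.17 to 3.36 and that of Usp18 3.63 to 5.57.

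The other 5 genes did not pass in J2. Ifnlr1 had 74.7 and 90.5 CPM in control and 170 and 90.1 CPM in DKO, so DKO animal 2 lay at the control level (log2 fold change 0.70 ± 0.40, adjusted p = 0.267). Il10rb had 53.3 and 51.9 CPM in control and 25.2 and 33.9 CPM in DKO. Both DKO values were the lower ones (log2 fold change -0.76 ± 0.35, adjusted p = 0.18). Ifnar1 had 84.2 and 84.3 CPM in control and 97.6 and 29.3 CPM in DKO. Jak1 had 190 and 182 CPM in control and 207 and 54.9 CPM in DKO. Tyk2 had 87.1 and 102 CPM in control and 169 and 70.3 CPM in DKO. In these 3 genes DKO animal 1 lay above both control animals and DKO animal 2 below both.

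In the K1 pulldown 5 of the 9 genes rose, Ifnlr1, Ifnar2, Stat2, Socs1 and Usp18, where 13.2% of 12888 genes rose, and 1 fell, Il10rb, where 13.9% fell. Usp18 had 10.3 and 5.29 CPM in control and 419 and 102 CPM in DKO (36.6-fold, log2 5.19 ± 0.69, adjusted p = 0.00389). Stat2 had 35.4 and 30.9 CPM in control and 213 and 184 CPM in DKO (6.82-fold, log2 2.77 ± 0.27, adjusted p = 0.00195). In both genes the control animals lay far below both DKO animals, and the DKO pair was wide in Usp18 and narrow in Stat2. Ifnar2 had 3.52 and 5.51 CPM in control and 18.5 and 19.5 CPM in DKO (4.82-fold, log2 2.27 ± 0.38, adjusted p = 0.00721). Socs1 had 11.4 and 7.30 CPM in control and 29.0 and 44.8 CPM in DKO (4.50-fold, log2 2.17 ± 0.40, adjusted p = 0.00987). Ifnlr1 had 36.0 and 52.1 CPM in control and 100 and 68.8 CPM in DKO (2.19-fold, log2 1.13 ± 0.29, adjusted p = 0.0271). None of these groups overlapped.

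Both chains of the type III receptor passed in K1, in opposite directions. Il10rb had 33.8 and 32.7 CPM in control and 15.2 and 10.9 CPM in DKO, which rests on 64 and 24 counts in DKO (2.22-fold lower, log2 -1.15 ± 0.29, adjusted p = 0.0268). The DESeq2 test gave it an adjusted p of 0.0541. Ifnar1 had 61.0 and 59.8 CPM in control and 68.2 and 31.2 CPM in DKO. Jak1 had 166 and 162 CPM in control and 207 and 99.2 CPM in DKO. Tyk2 had 137 and 174 CPM in control and 165 and 96.5 CPM in DKO, so in all 3 genes the groups overlapped. Without control animal 1, 3 of the 9 passed in K1, Stat2, Socs1 and Usp18. Ifnlr1 and Il10rb did not pass without either control animal, with adjusted p of 0.439 and 0.146 for Ifnlr1 and 0.283 and 0.207 for Il10rb. Without TMM scaling the log2 fold changes of the 9 genes in K1 were lower by 0.34 to 0.43, and Ifnlr1 no longer passed (0.76, adjusted p = 0.0638).

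**Figure D4:**
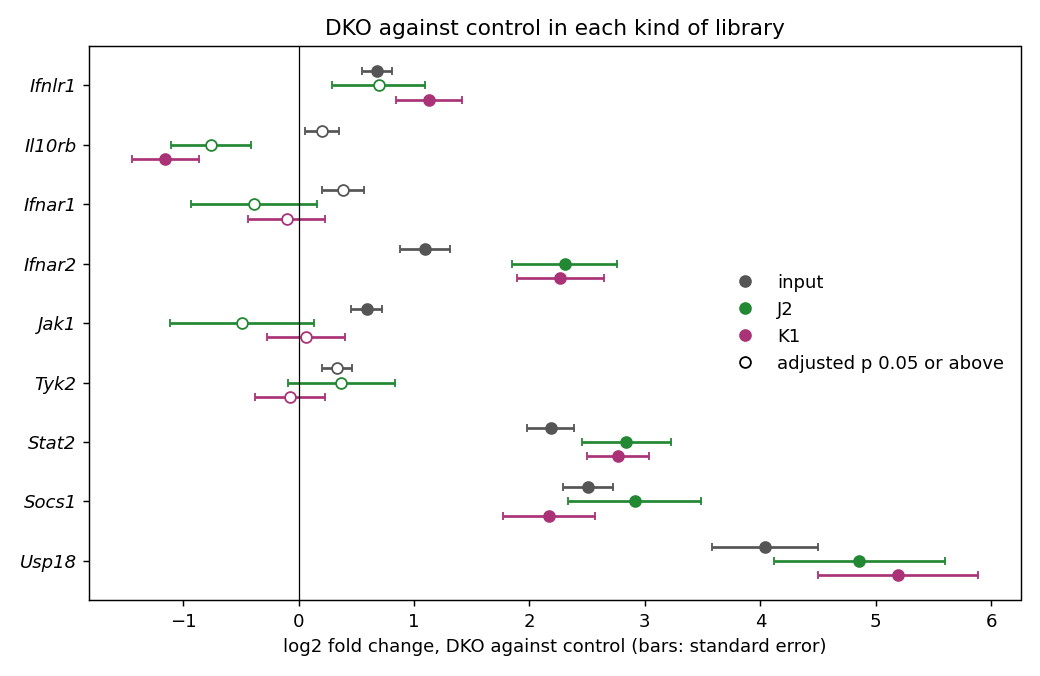
Log2 fold change of DKO against control with its standard error for each gene, in grey for input, green for J2 and purple for K1, with open points where the adjusted p was 0.05 or above. Ifnar2, Stat2, Socs1 and Usp18 passed in all 3 kinds of library, and Il10rb lay at 0.21 in input, -0.76 in J2 and -1.15 in K1.

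Pathway genes outside the 9 were also compared in the pulldowns. Over all genes tested, 6.02% rose in J2, and in K1 13.2% rose and 13.9% fell. Of the 6 other receptors 0 passed in J2, and in K1 0 rose and 1 fell, Ifngr2 (-0.94, adjusted p = 0.0463). Of 7 other JAKs, STATs and Irf9, 0 passed in J2, and in K1 2 rose, Irf9 and Jak3, and 1 fell, Stat5b (-1.11, adjusted p = 0.0257). Of 16 other feedback genes, 2 rose and 0 fell in J2, with a median of -0.31, and 3 rose and 1 fell in K1, with a median of -0.12. Of 12 ISGF3 targets, 9 rose in J2 and 12 in K1, with medians of 4.19 and 4.55. Mx2, which is in this list, passed the count filter in both pulldowns only through the DKO group, where it was higher. Of 12 GAS targets, 5 rose and 1 fell in J2, and 8 rose and 1 fell in K1. Cxcl9 and Gbp5 passed the count filter in both pulldowns only through the DKO group, where they were higher. Both are among the 8 of K1, so that count is no support. Isg15 and Socs3 rose in both, by 4.56 (adjusted p = 0.0291) and 2.82 (adjusted p = 0.032) in J2 and by 4.41 (adjusted p = 0.00302) and 2.96 (adjusted p = 0.00232) in K1. Irf9 rose in K1 (1.51, adjusted p = 0.00659) and did not pass in J2 (1.25, adjusted p = 0.0651).

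Enrichment compares a pulldown with the input of the same genotype and shows which transcripts the antibody recovered more or less of than their share of input RNA. With J2, 2 of the 9 genes passed in control, where 29.8% of 15923 genes did, and 2 passed in DKO, where 25.7% did. With K1, 3 passed in control, where 39.8% of 15908 genes did, and 2 in DKO, where 35.6% did. These shares of the 9 genes were near or below the background. Pulldown and input of an animal are paired, and the fit with the animal as a block is given where it changed a call. Without either control animal, Il10rb in K1 of DKO was the 1 call of enrichment among the 9 genes that passed (adjusted p = 0.00352 and 0.00302), and the spread then rests on the DKO pair.

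Ifnlr1 was enriched with J2 in both genotypes. Pulldown minus input of the same animal, in log2 CPM, was 1.08 and 1.11 for the control animals, and 1.48 and 0.61 for the DKO animals. The fold change was 2.15 in control (log2 1.11 ± 0.33, adjusted p = 0.036) and 2.21 in DKO (1.15 ± 0.33, adjusted p = 0.0363). The control call was lost without either control animal (adjusted p = 0.51 and 0.522), and the DKO call without the count filter (0.91, adjusted p = 0.0679). The DKO value rested on animal 1, with 0.50 (adjusted p = 0.0639) without it and 1.51 (adjusted p = 0.000727) without animal 2. With K1 its log2 CPM differences were 0.03 and 0.32 for control, 0.72 and 0.22 for DKO, and neither genotype passed.

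Tyk2 was enriched with K1, by 1.62 and 1.86 in the control animals and 1.42 and 0.90 in the DKO animals (log2 CPM, pulldown minus input). The fold change was 3.19 in control (log2 1.67 ± 0.27, adjusted p = 0.00111) and 2.19 in DKO (1.13 ± 0.27, adjusted p = 0.00949). With J2 all 4 animals were also above their input, by 0.98, 1.08, 1.46 and 0.44. Those J2 values did not pass (log2 fold change 1.04 ± 0.39, adjusted p = 0.075 in control and 1.11 ± 0.39, adjusted p = 0.0681 in DKO). With the animal as a block the control value passed (1.04, adjusted p = 0.0484).

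Ifnar2 was depleted in control pulldowns. Pulldown minus input was -1.11 and -0.79 with J2 and -1.52 and -0.55 with K1, in log2 CPM. The log2 fold change was -0.98 ± 0.32 with J2 (adjusted p = 0.0479) and -1.13 ± 0.29 with K1 (adjusted p = 0.0108). The J2 value no longer passed with the animal as a block (-0.98, adjusted p = 0.071). The K1 value was -0.65 (adjusted p = 0.449) without control animal 1 and -1.62 (adjusted p = 0.0971) without control animal 2. In DKO the differences were -0.36 and 0.69 with J2 and -0.26 and 0.25 with K1, on both sides of 0.

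Il10rb was depleted from DKO pulldowns. Pulldown minus input in DKO was -1.29 and -0.47 with J2 and -2.01 and -2.10 with K1, in log2 CPM, against 0.13 and 0.11 with J2 and -0.53 and -0.56 with K1 in control. With K1 it was 4.32-fold below input in DKO (log2 -2.11 ± 0.23, adjusted p = 0.000269) and 1.54-fold below in control (-0.62 ± 0.20, adjusted p = 0.0317). With J2 in DKO it was 1.81-fold below input (-0.85 ± 0.25, adjusted p = 0.0403), which did not pass with the animal as a block (adjusted p = 0.0735). The 4 animals thus fell into non-overlapping pairs with either antibody, and the K1 pairs were the tighter ones.

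Stat2 in K1 of control (log2 -0.60, adjusted p = 0.0336) and Socs1 in the same comparison (0.85, adjusted p = 0.0112) passed only with the animal as a block, which raised the count there from 3 to 5. Without the block Stat2 had -0.61 ± 0.25 (adjusted p = 0.0758) and Socs1 0.87 ± 0.33 (adjusted p = 0.0563). The block lowered the count in J2 of DKO from 2 to 1.

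Whether enrichment itself differed between the genotypes was tested as an interaction. With J2, 0 of the 9 genes passed (edgeR quasi-likelihood test), where 2.71% of genes did. The same test gave 2 genes at an unadjusted p under 0.05, Il10rb and Ifnar2, and DESeq2 also called 0. With K1, 1 of the 9 passed, Il10rb, which was lower in DKO, where 4.10% of genes were lower. Its log2 difference was -1.49 ± 0.31 (adjusted p = 0.0279), against a median of -0.20 over all genes tested. The K1 difference of Il10rb was -1.63 (adjusted p = 0.00677) without DKO animal 1 and -1.50 (adjusted p = 0.0188) without DKO animal 2. It did not pass without control animal 1 (-1.50, adjusted p = 0.639) or control animal 2 (-1.56, adjusted p = 0.378), and its J2 difference was -0.98 ± 0.35 (adjusted p = 0.136).

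Ifnar2 went the other way, with log2 differences of enrichment of 1.19 ± 0.44 with J2 (adjusted p = 0.144) and 1.02 ± 0.40 with K1 (adjusted p = 0.16). Stat2 had 0.66 ± 0.44 (adjusted p = 0.364) and 0.44 ± 0.35 (adjusted p = 0.491), and Usp18 0.87 ± 0.93 (adjusted p = 0.585) and 1.05 ± 0.88 (adjusted p = 0.512). A difference of enrichment was therefore not detectable for Stat2 or Usp18 with these errors. Jak1 had -1.03 ± 0.74 with J2 (adjusted p = 0.4) and -0.65 ± 0.43 with K1 (adjusted p = 0.399). In J2 these errors of Jak1 came from the DKO pair, at 0.20 and -1.47 in log2 CPM against input.

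**Figure D5:**
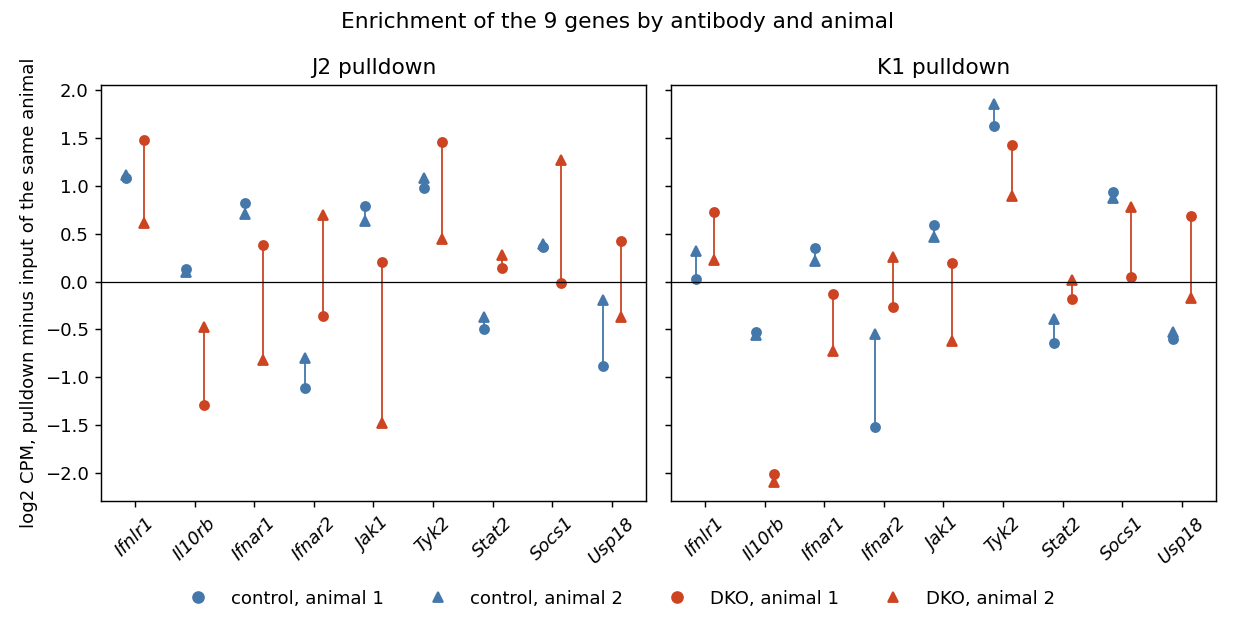
Log2 CPM of pulldown minus input of the same animal for each gene, with J2 on the left and K1 on the right, blue for control and red for DKO, circles for animal 1 and triangles for animal 2, and a line joining the animals of a group. With K1, Il10rb lay at -0.53 and -0.56 in control and at -2.01 and -2.10 in DKO, and Tyk2 lay above its input in all 4 animals with both antibodies.

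The genes most like 4 of the members were found by Pearson correlation of log2 CPM over the 12 libraries, among 9369 genes. Usp18 was most like Isg15 (0.991), Dhx58 (0.987) and Spats2l (0.987), and Stat2 was most like Oas1g (0.995), Xaf1 (0.994) and Oasl2 (0.989). Isg15, Dhx58, Oas1g, Xaf1 and Oasl2 are known interferon-stimulated genes. Socs1 was most like Hsh2d (0.979), Inf2 (0.969) and Zfp385a (0.966). Among the 3 genes most like Ifnlr1 were Crybg2 (0.948) and Arnt2 (0.925), neither of which is among the genes nearest to the other 3 members. The 12 libraries share 4 animals and a genotype difference, so these values describe a pattern and carry no p.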

How the data were processed

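RNA of 4 mice was sequenced in 12 libraries. Per the labels' protocols, lysates were incubated with J2 or K1 and captured on beads, and ribosomal RNA was depleted. Libraries were primed with random hexamers and carried molecular identifiers. The authors deposited raw read counts for each gene, made without regard to strand per the labels. The submitters' processing notes name mm10 and GRCm38.p4 with STAR 2.7.10b, SAMtools 1.17, UMI-tools 1.1.4, HTSeq 2.0.2, DESeq2 1.40.1, edgeR 3.42.2, deepTools 3.5.2 and FastQC, without their roles. The annotation and whether duplicate reads were removed are not given in the sources used here. No spike-in is described, so scaling removes differences in total RNA.

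Symbols, coordinates and exon lengths came from GENCODE M21 (GRCm38), matching 48144 of 48526 rows without version suffix. The 5 closing rows that name no gene stayed out of totals. In input, reads outside genes were 25.0% to 27.0% of listed reads. Tests used edgeR 4.0.16 in R 4.3.3 (quasi-likelihood, TMM, filterByExpr with a minimum of 10 counts, Benjamini-Hochberg adjusted p under 0.05 over all genes tested). DKO and control were compared within 4 libraries at a time, leaving 2 residual degrees of freedom. Enrichment and its interaction were fitted on 8 libraries, leaving 4. CPM used TMM over all 12 libraries, and log2 CPM a prior count of 2. Errors after ± are SE for log2 fold changes and SD otherwise. The input fit and the K1 interaction fit were tested on simulated data with 1 spread for all genes and libraries. Real DKO pulldowns differed more between animals than input did, so the simulation does not stand for them.

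Members and lists were chosen with earlier results of these data known. A pathway gene, left out of its list, and 1 gene like Ifnlr1 are not reported here. Named genes are all members, up to 4 of each list with the largest absolute change among those called in input (Irf1, Irf8, Ifngr2, Stat5b, Socs4 and the markers were named after their values were seen), and the 3 most like Ifnlr1, Stat2, Usp18 and Socs1 among genes with a mean of at least 50 counts. Transcript similarity was checked with blastn 2.17.0+ (97% identity over 100 bases): Il10rb and Ifnar2 shared sequence with Gm21970 (20.5% and 10.3% of their longest transcripts) and Usp18 with Gm44148 (7.1%). Alternatives were DESeq2 1.42.0 size factors and test, no TMM, no filter, all 12 libraries in one fit, thinning to the shallowest library, leaving out each animal, and a replicate block. Pulldown and input pair by animal (correlation of deviations 0.208 to 0.296).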

Additional observations from a re-analysis of the deposited data

Results flagged for a closer look

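Il10rb was singled out because its enrichment by K1 differed between the genotypes in the interaction test, by a log2 difference of -1.49 ± 0.31 (edgeR quasi-likelihood test, adjusted p = 0.0279). The call was lost in 1 fit of all 12 libraries (-1.50, adjusted p = 0.0836), after thinning (-1.41, adjusted p = 0.0764), and without control animal 1 or 2 (adjusted p = 0.639 and 0.378). Both DKO animals lay below both control animals with K1, and also with J2, where the test was not passed. Ifnar1 and Jak1 separated in the same way with both antibodies and passed with neither.

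Socs6, a feedback inhibitor outside the 9 genes that was named for its rise in input, differed with both antibodies. Its log2 difference of enrichment was -1.96 ± 0.35 with J2 (adjusted p = 0.0408) and -1.77 ± 0.32 with K1 (adjusted p = 0.0203). Socs4, chosen after its values were seen, was the other of the 16 feedback genes called lower in both, with -1.91 ± 0.38 (adjusted p = 0.0453) and -1.85 ± 0.34 (adjusted p = 0.0203). Over all genes tested, 1.94% were called lower with J2 and 4.10% with K1. With the animal as a block, 0 genes passed the J2 difference. Socs6 rose in input and had lower means in DKO than in control in J2 (13.6 against 34.4 CPM) and K1 (14.2 against 30.9 CPM). The DKO pulldowns were the shallowest libraries, and the part of depth in these differences was not tested beyond the thinned fits.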

How the results depend on the processing

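All 26 called values of the 9 genes kept their sign under 11 alternatives each, whereas 22 of all 81 values, none of them called, changed sign under at least one. Of the 26, 14 passed in every alternative that kept all animals, and 7 passed in every alternative: Usp18, Stat2 and Socs1 in input and K1, and Il10rb in K1 of DKO against input.

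With all 12 libraries in 1 fit, 3 of the 9 genes passed in input (Usp18, Stat2 and Socs1) and 0 in the K1 difference of enrichment. Without TMM, 2 passed in J2 of DKO against control, and 1 in J2 against input in each genotype. After thinning to the shallowest library, 1 passed in J2 against input in each genotype and 0 in the K1 difference. Without the count filter, 1 passed in J2 against input of DKO. With the replicate block by animal, 1 passed there and 5 in K1 against input of control, and the block moved no other count of enrichment calls by over 1.5 times. Replicate numbers of control and DKO name different animals, whose deviations correlated at 0.026, -0.088 and -0.097; a block on them moved no count of called members by over 1.5 times.

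Over the alternatives that kept all animals, the genes called among all tested ran from 1675 (all 12 libraries) to 6462 (no filter) in input, against 5421 as reported, from 1091 to 5984 in J2 (1606) and from 2470 to 4888 in K1 (3487). Enrichment calls ran from 2309 to 6366 in DKO and from 2673 to 7450 in control. Differences of enrichment ran from 0 (replicate block) to 2453 with J2 (432) and from 59 (all 12 libraries) to 1912 with K1 (870).

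Leaving out 1 animal at a time gave 4 to 9 called genes in input, 0 to 7 in J2 and 3 to 7 in K1 for DKO against control. It gave 0 to 6 and 0 to 4 in J2 against input of control and DKO, 0 to 6 and 1 to 4 in K1 against input, and 0 to 5 and 0 to 4 in the J2 and K1 differences of enrichment. The lone animal is then assumed to vary like the other group. Precision was limited most in the DKO pulldowns, where Il10rb in K1 rested on 64 and 24 counts. In the whole window of 300 bases GAAANNGAA was again held by 2 of 7 members, and Ifnar1 also held TTCNNNGAA.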
